A study of Homo sapiens with 6 samples.

Results

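The integrin beta subunit genes and the adhesion kinase genes ILK and PTK2 were described in A375 melanoma cells with and without an NRAS mutation. The members were the genes named ITGB1 to ITGB8 together with ILK and PTK2, chosen by symbol, and 9 of 740 endogenous genes on the panel fell under this rule. They were 7 beta subunits (ITGB1, ITGB2, ITGB3, ITGB4, ITGB6, ITGB7 and ITGB8) and the 2 kinase genes, and ITGB5 was not analysed here. A375 is an established human malignant melanoma line with the BRAF V600E mutation. The control group was A375 with BRAF V600E and wild-type NRAS, and the other group was an isogenic A375 line with BRAF V600E and NRAS Q61K, an activating mutation. By their catalogue names the cells of both lines hold a luciferase gene, and they were grown untreated in medium with 10% serum for no more than 5 population doublings after thawing. Each genotype was represented by 1 line, so the NRAS allele and other differences between these lines cannot be told apart. There were 3 RNA samples per line, and the labels do not say whether these came from separate cultures, so the p-values measure the spread between these samples.

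RNA was read with the nCounter PanCancer Progression panel, in which colour-coded probes are hybridized to target RNA and counted without amplification. Values are normalized counts, that is, barcode counts after background subtraction and scaling between samples. The summed counts before scaling lay between 1223984 and 1264503 in the wild-type samples and between 1158362 and 1189450 in Q61K samples. Replicates of a gene above the floor varied by a median of 3.48% and 3.64% (coefficient of variation, n = 3 each). The floor, the mean of the 8 negative control probes plus 2 SD, was 129.7 counts, and 454 endogenous genes had a mean above it. Judged by their decimals, the negative probe values were not scaled between samples as the gene values were. The floor is therefore only approximate on the scale of the genes. The cell identity was checked by listed markers. The 4 melanoma markers on the panel (MCAM, SOX9, ERBB3 and CSPG4) were all above the floor, with a summed level of 3422 to 3459 counts in wild-type and 8544 to 8984 in Q61K samples. Each of the 3 leukocyte markers on the panel had a mean below the floor, with sums of 94.4 to 131 and 113 to 160.1 counts, and PTPRC, the pan-leukocyte phosphatase gene, was at the table's minimum in all samples. The 8 epithelial markers were likewise below the floor, with sums of 131 to 148 and 47.0 to 57.6 counts and with EPCAM, CDH1 and OCLN at the minimum throughout. Of 6 platelet and endothelial markers 4 (PECAM1, KDR, CD34 and ROBO4) had a mean above the floor. The sums over all 6 were 768 to 845 and 1029 to 1234 counts. KDR passed the floor only through the Q61K line, at 39.2 ± 3.66 counts in wild-type and 228 ± 31.5 in Q61K samples (SD, n = 3).

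Integrins are receptors built from 1 alpha and 1 beta chain, and most of them tie the extracellular matrix to the actin cytoskeleton. In most integrins, though not all, the cytoplasmic tail of the beta chain binds talin and kindlin. Clustering of such tails brings in the scaffold protein ILK and the tyrosine kinase FAK, which PTK2 encodes. The beta chain also sets which alpha partners can be used. ITGB1 pairs with most alpha subunits, ITGB3 with alphav and the platelet alphaIIb, ITGB4 with alpha6 alone, ITGB6 and ITGB8 with alphav alone, ITGB2 with the leukocyte alpha chains, and ITGB7 with alpha4 and alphaE. In melanoma the alphavbeta3 receptor has long been studied as a mark of invasive growth.

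The panel comparison asked how these genes differed between melanoma cells with mutant and wild-type NRAS. The most marked differences were a rise of ITGB3, ITGB4 and PTK2 in NRAS Q61K cells, while ITGB1, ITGB8 and ILK differed by less and ITGB2 did not pass the test. ITGB7 did not enter the test, and its low signal was above the floor in the wild-type samples alone. Of the 9 members 7 were above the floor, and 6 of these were higher at an adjusted p under 0.05 (limma over all 454 genes). After equal medians, quantile normalization or positive control scaling 3 were higher, and after the first 2 of these 2 and 1 were lower, with ITGB8 turned to the lower side. Of all genes tested, 62.1% were called higher and 20.9% lower as deposited. The count of higher members is thus read against a background in which most genes rose on the deposited scale. After equal medians, quantile normalization and positive control scaling, 32.8%, 34.4% and 34.8% of all genes were called higher. Lower calls were 45.4% and 43.8% after the first 2 of these. As a description, the median log2 difference was 0.48 over the 7 members above the floor and 0.32 over all genes tested. ITGB3 was the member with the highest rank, 23 among 454 genes ordered from the highest log2 difference, followed by ITGB4 at 65 and PTK2 at 112.

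**Figure D1:**
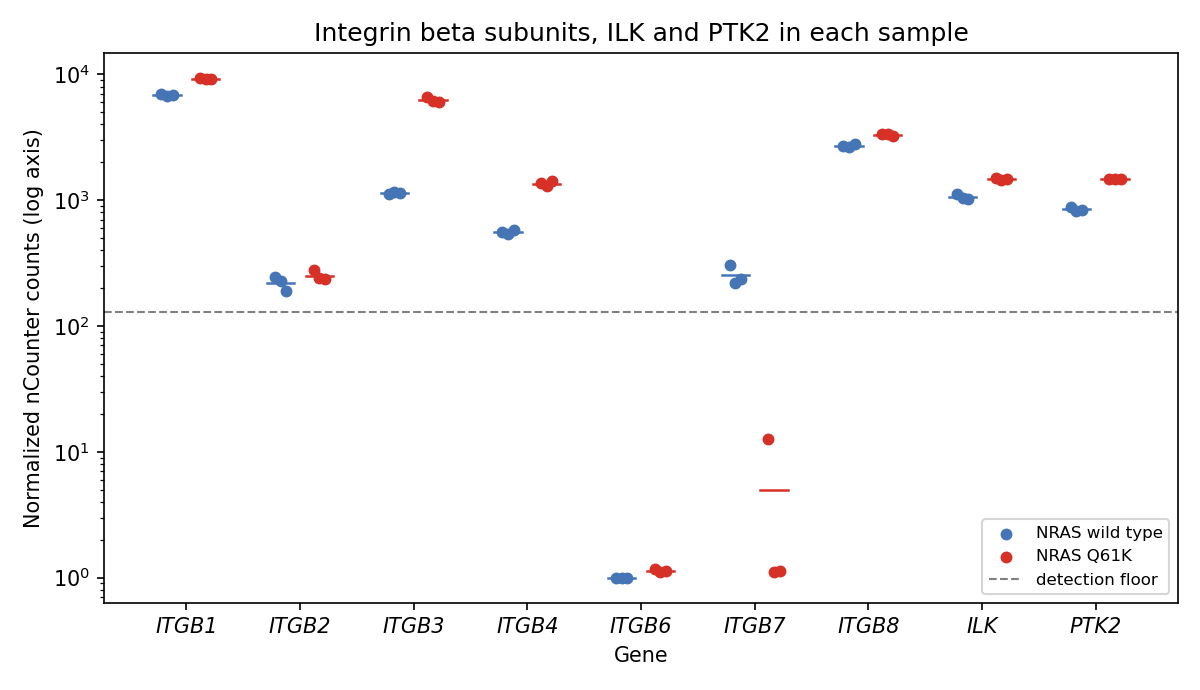
Normalized nCounter counts of the 9 genes on a log axis, with a point for each sample, a bar at the mean of 3 samples and a dashed line at the floor of 129.7 counts. ITGB3 separates the lines most among genes above the floor, ITGB7 is above the floor in wild-type samples alone, and ITGB6 sits at the minimum in all 6.

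The promoter sequences below are shown for 3 members that differ in where they were detected, ITGB1 in both lines, ITGB6 in neither and ITGB7 in the wild-type line alone. Each run is the 250 bases before the annotated start, 5′ to 3′ on the gene's own strand, from RefSeq on GRCh38.p14, where 5 of the 9 members had a sequence. Capitals mark matches, on either strand, to the GC box GGGCGG, the TATA box TATAAA, the AP-1 motif TGANTCA, the RUNX motif TGTGGT, the ETS motif CCGGAAG or the shorter ETS form AGGAAG, the last chosen after the ITGB7 sequence was read.
ITGB1 (chr10:32958231-32958480, minus strand): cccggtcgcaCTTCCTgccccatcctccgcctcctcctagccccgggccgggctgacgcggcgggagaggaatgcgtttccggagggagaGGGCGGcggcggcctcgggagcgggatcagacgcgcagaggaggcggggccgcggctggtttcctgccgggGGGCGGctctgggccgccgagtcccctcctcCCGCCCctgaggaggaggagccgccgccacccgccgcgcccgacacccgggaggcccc
ITGB6 (chr2:160200273-160200522, minus strand): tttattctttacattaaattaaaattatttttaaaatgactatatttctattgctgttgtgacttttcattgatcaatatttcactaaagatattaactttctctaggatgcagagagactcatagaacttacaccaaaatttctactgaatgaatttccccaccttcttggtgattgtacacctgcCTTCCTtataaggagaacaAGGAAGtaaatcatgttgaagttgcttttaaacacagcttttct
ITGB7 (chr12:53207252-53207501, minus strand): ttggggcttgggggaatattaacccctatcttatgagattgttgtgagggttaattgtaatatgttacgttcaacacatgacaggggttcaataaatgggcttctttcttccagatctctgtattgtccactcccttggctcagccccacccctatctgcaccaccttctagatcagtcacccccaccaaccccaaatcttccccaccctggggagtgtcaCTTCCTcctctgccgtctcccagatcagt
The ITGB1 window held 3 GC boxes and 1 AGGAAG match, the ITGB6 window 2 AGGAAG matches, and the ITGB7 window 1 AGGAAG match that spans bases 29 to 24 before the start. Over 35116 promoter windows of the same length, 42.6% held a GC box, 28.7% AGGAAG, 8.52% CCGGAAG, 6.57% the AP-1 motif, 10.7% the TATA box and 10.98% the RUNX motif. The GC content was 78.4% for ITGB1, 30% for ITGB6 and 49.6% for ITGB7, against a median of 58.0% over all windows. These matches describe letters in a window and show no binding.

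ITGB3, the beta chain of the vitronectin receptor alphavbeta3, had 1110.4, 1153 and 1141 counts in the wild-type samples and 6582, 6096 and 6054 in the Q61K samples. Every Q61K sample lay far above every wild-type sample, and the spread within a line was small beside that gap. The means were 1135 ± 22.2 and 6244 ± 294 (SD, n = 3 each), which is 5.49-fold higher in Q61K cells, with a 95% interval of 5.11 to 5.91 and an adjusted p of 5.87e-08 (limma). A rise of at least 2-fold was called for 18.5% of all genes tested.

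ITGB4, the laminin-binding partner of alpha6 that anchors epithelial cells to basement membrane, had 554, 539 and 582 counts in the wild-type samples and 1361, 1287 and 1418 in Q61K samples. The lines did not overlap, which was so for 84.1% of the genes tested. ITGB4 was 2.42-fold higher in Q61K cells (95% interval 2.23 to 2.64, adjusted p = 1.32e-06, limma).

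ITGB1, the subunit shared by the collagen, laminin and fibronectin receptors, had 6958, 6772 and 6825 counts in wild-type and 9359, 9103 and 9219 in Q61K samples. ITGB8, the alphav partner that binds and activates latent TGF-beta, had 2698, 2669.95 and 2789 counts in wild-type and 3337, 3371 and 3227 in Q61K samples. Neither gene's samples overlapped between lines, but the differences were modest. ITGB1 was 1.35-fold higher (95% interval 1.28 to 1.41, adjusted p = 1.48e-05, limma) and ITGB8 1.22-fold higher (1.15 to 1.29, adjusted p = 0.00027) on the deposited scale. Relative to the panel's median shift, ITGB1 lay 0.11 above it and ITGB8 0.04 below it on the log2 scale.

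ITGB2, the common beta chain of leukocyte integrins, was a low signal of 243, 226 and 189 counts in wild-type and 276, 241 and 237 in Q61K samples. The lines overlapped, and the log2 difference of 0.20 had a 95% interval from -0.07 to 0.47 (adjusted p = 0.133, limma). It was 0.09 without wild-type replicate 3 and 0.13 without Q61K replicate 1. The interval holds both no change and a rise of up to 1.38-fold. PTPRC was at the minimum in the same samples. The leukocyte alpha partner of ITGB2 on the panel, ITGAM, had a mean of 112 ± 23.0 and 136 ± 23.7 counts (SD, n = 3) and was not tested.

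ITGB7, which forms gut-homing receptors of lymphocytes with alpha4 and alphaE, had 305, 218 and 236 counts in the wild-type samples and 12.6, 1.11 and 1.12 in Q61K samples. All wild-type samples were above the floor, whereas 2 of the 3 Q61K samples were at the table's minimum and the other was also far below the floor. The mean over all samples, 129.1 counts, missed the floor by 0.567, so ITGB7 was not among the 454 genes tested. That margin sets scaled gene values against unscaled probe values and is not exact. The wild-type mean was 1.95 times the floor, which for the same reason is not an exact lower bound on the fold. With no floor its adjusted p was 0.002 (limma over 740 genes, of which 17% were called lower). The same fit gave ITGB6 an adjusted p of 0.0104, though ITGB6 was at the scaled minimum in all samples. At the minimum that fit can call the scaling alone, so its p for ITGB7 is given as a description. The wild-type level is within about the same range as ITGB2 and varied by 18.1% between samples, and the negative probes NEG_G and NEG_H reached 131 and 144 counts.

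ITGB6, the epithelial alphav partner, was listed at the table's minimum in all 6 samples, that is, 1 count or the scaled equivalent of 1.11 to 1.16, and no difference can be read from it. The listed epithelial markers were low beside it, as given above.

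PTK2, encoding focal adhesion kinase, had 883, 826 and 839 counts in the wild-type samples and 1480.5, 1482 and 1461 in Q61K samples. The Q61K samples were all higher and closely spaced. PTK2 was 1.74-fold higher (95% interval 1.64 to 1.84, adjusted p = 2.20e-06, limma). ILK, encoding the scaffold of the ILK, PINCH and parvin complex at beta tails, had 1113, 1044 and 1023 counts against 1508, 1447 and 1487. It did not overlap either and was 1.40-fold higher (1.30 to 1.499, adjusted p = 5.86e-05).

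The deposited scale sets the housekeeping genes equal, and other scalings lower most log2 differences. The sample factors were 0.898 to 0.903 in wild-type and 1.11 to 1.16 in Q61K samples, and removing them moved the median log2 difference of all genes tested from 0.32 to -0.01. ITGB3, ITGB4 and PTK2 kept their direction and their call under each of the 4 other scalings. Their lowest log2 differences there were 2.01, 0.83 and 0.34, all after equalising the sample medians, where 32.8% of genes were called higher and 45.4% lower. ILK and ITGB1 passed with the factors removed (log2 difference 0.15 and 0.10) but under none of the other 3 scalings, and the background of genes called higher was 38.5% with the factors removed, 34.8% with positive control scaling and 34.4% with quantile normalization. ITGB1 was at -0.02 after equal medians. ITGB8 turned to the lower side under all 4, from -0.03 to -0.17, and was called lower after equal medians and after quantile normalization, where 43.8% of genes were called lower. ITGB8 was at -0.17 and -0.10 under these 2 scalings, and the median of all genes tested was itself at -0.13 and -0.10. ITGB2 also turned to the lower side under all 4, from -0.12 to -0.26, and was called lower after equal medians alone (adjusted p = 0.0477, limma).

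**Figure D2:**
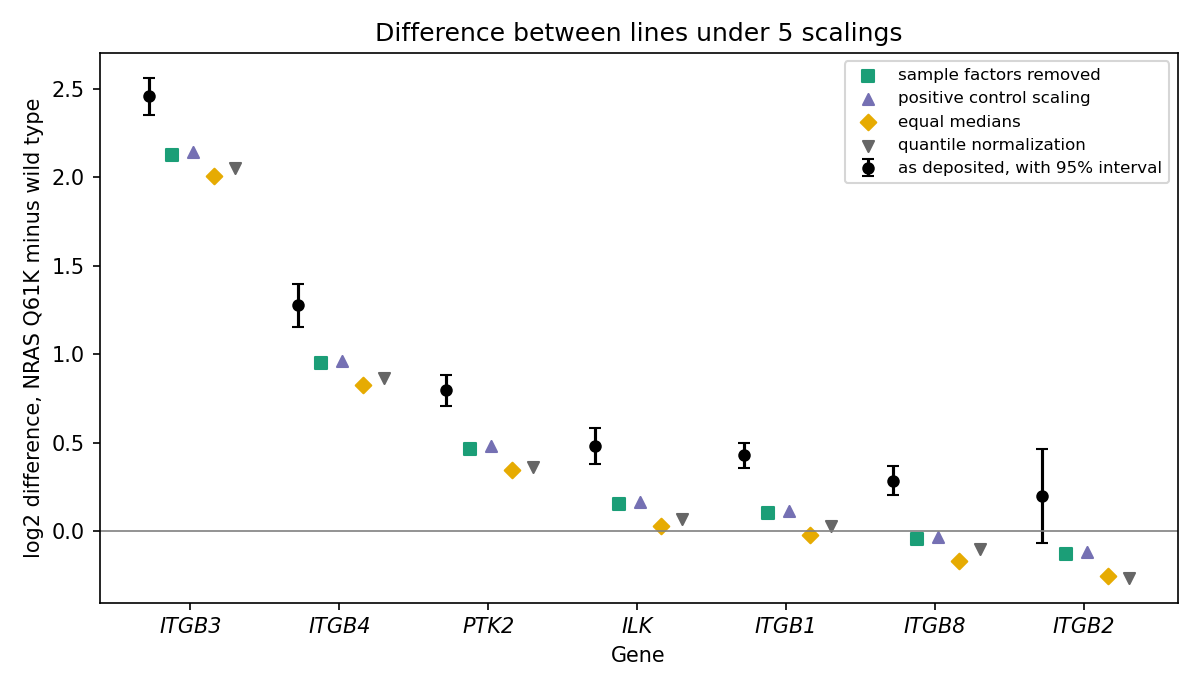
Log2 difference of Q61K minus wild type for the 7 members above the floor, as deposited (black, with the 95% interval) and under 4 other scalings (coloured marks). ITGB3, ITGB4 and PTK2 stay above 0 throughout, while ITGB8 and ITGB2 fall below 0 under the other scalings and ITGB1 does so after equal medians.

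Beta subunit use within a line was compared through ratios to ITGB1 in the same sample, in which any factor per sample cancels. A ratio carries any change of ITGB1 itself in the opposite direction, and its level depends on the probes, so only its change between lines is read. The fit over 453 genes called 34.4% of them higher and 43.7% lower relative to ITGB1. Of the 6 other members above the floor, ITGB3, ITGB4 and PTK2 were called higher, ITGB8 was called lower, and ILK and ITGB2 did not pass.

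The ITGB3 to ITGB1 ratio was 0.160, 0.1703 and 0.167 in the wild-type line and 0.703, 0.670 and 0.657 in Q61K samples. All Q61K samples lay above all wild-type samples, with a log2 change of 2.03 ± 0.04 (SE, adjusted p = 1.59e-07, limma). The ITGB4 ratio rose from 0.0815 ± 0.0033 to 0.147 ± 0.00637 (SD, n = 3), by 0.85 ± 0.05 on the log2 scale (SE, adjusted p = 7.56e-06). The PTK2 ratio rose from 0.124 to 0.1598, by 0.37 ± 0.03 (SE, adjusted p = 4.18e-05). Against the sum of ITGB1, ITGB3, ITGB6 and ITGB8 in place of ITGB1, the PTK2 change was -0.015 and did not pass (adjusted p = 0.671, limma).

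The ITGB8 ratio fell from 0.397 ± 0.0106 to 0.359 ± 0.0104 (SD, n = 3), with a log2 change of -0.14 and an adjusted p of 0.00886 (limma). The ILK ratio was 0.155 and 0.1604, and the interval of its log2 change, -0.03 to 0.13, holds 0 (adjusted p = 0.176). The ITGB2 ratio had a log2 change of -0.23 with an interval from -0.48 to 0.02 (adjusted p = 0.0814). Its call changed with the settings: it passed without wild-type replicate 3 (-0.33, adjusted p = 0.0079), with a pseudocount of 30 (0.0337) and with limma's intensity trend (0.044). Over the alternatives the adjusted p ranged from 0.00147 to 0.214 (limma). The low end came with the sum of ITGB1, ITGB3, ITGB6 and ITGB8 as denominator (-0.61), which is a different quantity from the ratio to ITGB1.

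**Figure D3:**
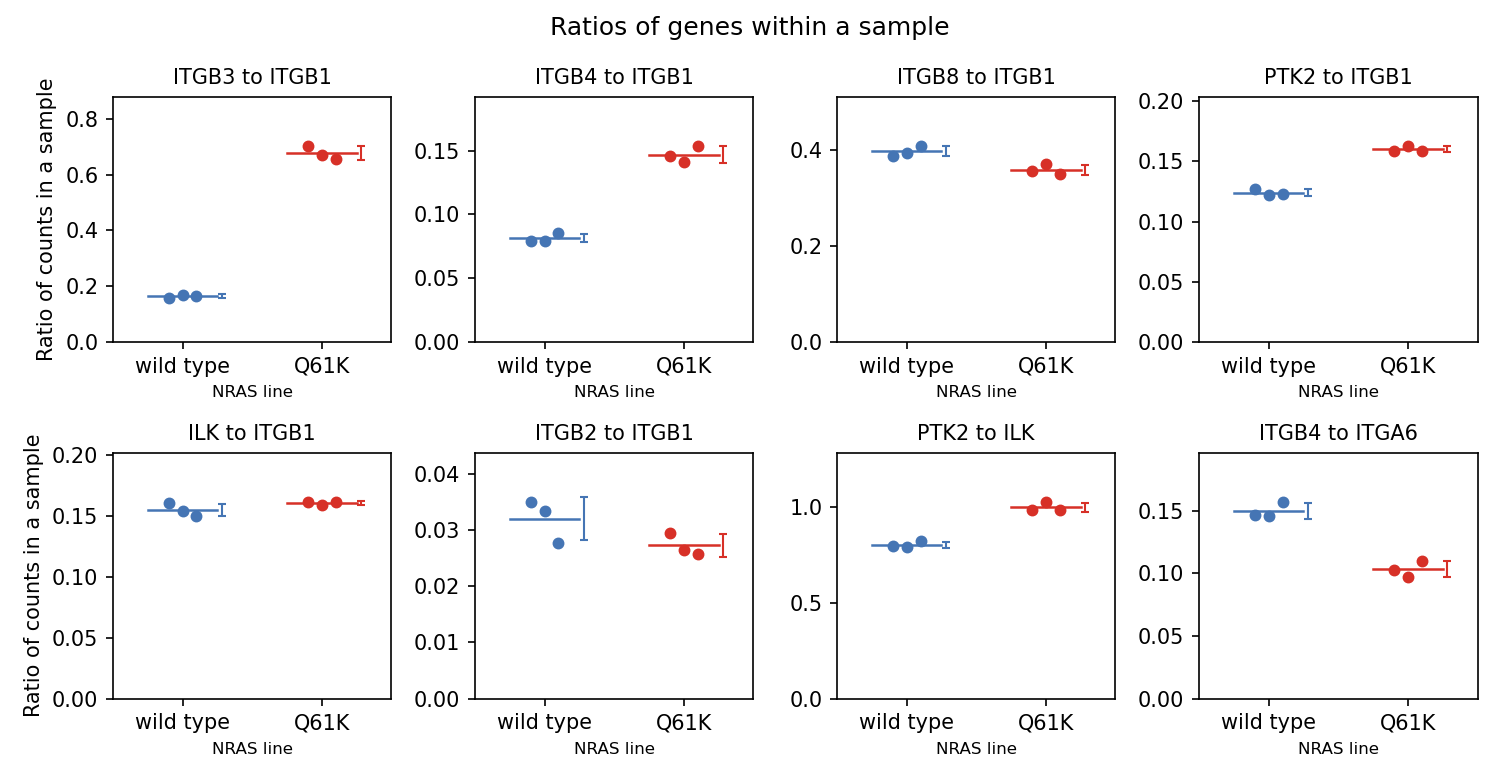
Ratios of counts of 2 genes within each sample, by NRAS line, with points for samples, a horizontal line at the mean and an error bar of 1 SD (n = 3). The ITGB3, ITGB4 and PTK2 ratios to ITGB1 and the PTK2 to ILK ratio are higher in Q61K samples, the ITGB8 to ITGB1 and ITGB4 to ITGA6 ratios are lower, and the ILK and ITGB2 ratios overlap.

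The kinase genes also shifted against each other. The PTK2 to ILK ratio was 0.794, 0.791 and 0.8200 in the wild-type samples and 0.982, 1.02 and 0.983 in Q61K samples, a 1.24-fold rise with no overlap. The exact permutation test gave p = 0.1 (2-sided), the smallest that 3 against 3 samples allow. Among the alphav partners, the ITGB3 to ITGB8 ratio went from 0.418 ± 0.0126 to 1.89 ± 0.0823 (SD, n = 3), a 4.51-fold rise, again with the smallest exact p of 0.1. These pairs were chosen after the values were seen.

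The makeup of the beta subunit signal was compared as shares of its sum in each sample. The summed counts of the 7 beta subunits were 11738 ± 147 in wild-type and 20395 ± 464 in Q61K samples (SD, n = 3), 1.74 times as high on the deposited scale. The ITGB3 share of the sum was 9.35%, 9.96% and 9.70% in the wild-type samples and 31.4%, 30.3% and 30.04% in Q61K samples. The ITGB1 share fell from 58.4% ± 0.311 to 45.2% ± 0.51 and the ITGB8 share from 23.2% ± 0.496 to 16.2% ± 0.46 (SD, n = 3). The ITGB4 share rose from 4.76% ± 0.167 to 6.65% ± 0.341, while ITGB7 went from 2.16% ± 0.366 to 0.0237% ± 0.0315 and ITGB2 from 1.87% ± 0.235 to 1.23% ± 0.0778. Each of these differences had an exact permutation p of 0.1 (2-sided), the smallest the design allows. Shares of a sum are bound together, so a rise of the ITGB3 share lowers others and these are not separate results. On the deposited scale ITGB3 made up 59.0% of the summed increase in counts. ITGB1 and ITGB8 counts rose as well, by 27.4% and 6.85% of that increase, and only ITGB7 counts fell. ITGB1 thus remained the highest share of the measured signal in both lines, followed by ITGB8 and then ITGB3 in the wild-type samples and by ITGB3 and then ITGB8 in Q61K samples, an order of probe signals and not of molecules.

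**Figure D4:**
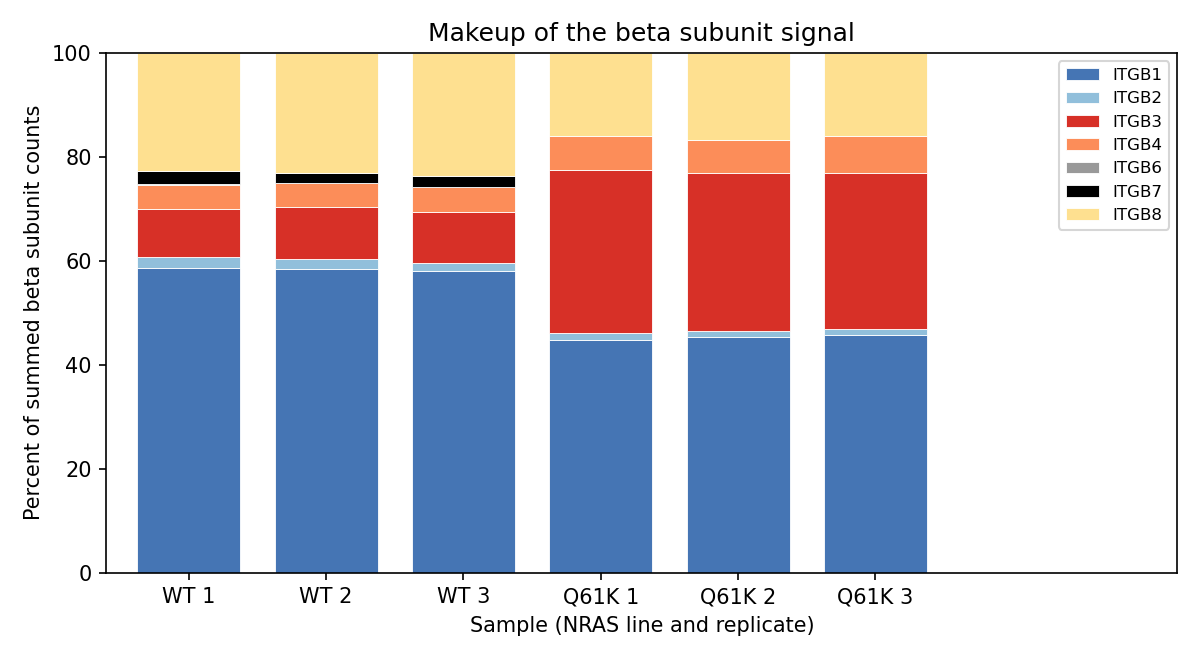
Percent of the summed beta subunit counts given by each subunit, as a stacked bar for each of the 6 samples. The ITGB3 part is 9.35% to 9.96% in the wild-type samples and 30.04% to 31.4% in the Q61K samples, and the ITGB7 part is seen in the wild-type samples alone.

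Alpha subunits that pair with these beta chains were measured on the same panel. Of 10 on the panel 6 were above the floor, and 5 were higher and ITGA2 was lower (limma), or 4 and 1 after equal medians. Of all genes tested 62.1% were called higher and 20.9% lower as deposited, and 32.8% and 45.4% after equal medians. The counts of this and the following lists stand beside these shares as a description, and no difference of a list from them was tested. ITGA6, the partner of both ITGB4 and ITGB1, was 3.52-fold higher at 13161 ± 186 against 3736 ± 47.1 counts (SD, n = 3), so that the ITGB4 to ITGA6 ratio fell from 0.149 ± 0.00648 to 0.103 ± 0.00638 while both genes rose. ITGA7, another laminin-binding partner of ITGB1, was higher at 369 ± 11.04 against 49.1 ± 3.39 counts and passed the floor only through the Q61K line. Its Q61K mean was 2.85 times the floor, which sets scaled gene values against unscaled probe values and is not an exact lower bound on the fold. ITGA3, a further laminin-binding partner, was 1.51-fold higher, and ITGA1, a collagen-binding partner of ITGB1, 33.2-fold. Among those not tested, ITGA9 and ITGA11 were at the minimum in all wild-type samples. Their Q61K means were 174 ± 15.9 and 134 ± 18.1 counts (SD, n = 3), the latter close to the floor. ITGA8 was at the minimum in all samples.

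Genes that act beside integrins at adhesions were counted in the same way. Of 12 listed adhesion partners on the panel 10 were above the floor, with 5 higher, 3 lower and 2 not called (limma), or 1 higher and 8 lower after equal medians, and a median log2 difference of 0.10. SRC, the kinase that partners FAK, was 1.53-fold higher at 1790.3 ± 31.8 against 1172 ± 39.5 counts. MYLK, encoding myosin light chain kinase, was 2.82-fold lower and CAV1, the membrane scaffold caveolin 1, 1.58-fold lower. PTK2B, the FAK relative PYK2, was below the floor at 44.0 ± 12.6 and 61.6 ± 12.5 counts.

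Matrix ligands of the beta chains were counted likewise. Of 8 listed ligands of alphav and RGD-binding integrins 5 were above the floor, 3 higher and 2 lower, also after equal medians. FN1 (fibronectin) and TNC (tenascin C) were 10.8-fold and 6.16-fold higher and THBS1 (thrombospondin 1) 6.38-fold lower. Of 7 laminin chain genes 5 were above the floor, with 4 higher and LAMA1 lower, or 3 and 1 after equal medians. LAMA1 passed the floor only through the wild-type line, at 176 ± 5.74 against 126 ± 15.4 counts. LAMA5 was 5.17-fold, LAMA4 3.85-fold and LAMC1 2.05-fold higher. Of 6 listed ligands of leukocyte integrins 3 were above the floor: ICAM1, the ligand of ITGB2 receptors, was 2.24-fold higher, JAM3 1.85-fold higher, and F11R did not pass at 318 ± 8.67 and 346 ± 41.3 counts. After equal medians F11R was called lower (log2 difference -0.34, adjusted p = 0.00417, limma), and the list split 2 and 1. VCAM1, a ligand of ITGB7 receptors, was at the minimum in all samples.

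The genes most like ITGB3 over the 6 samples, by the distance between log2 values centred on each gene's mean, were LIFR (distance 0.082), GSN (0.166) and FHL1 (0.168). LIFR had 65.9 ± 2.85 counts in wild-type cells, below the floor, and 364 ± 20.6 in Q61K cells, so its distance is not measured above background. LIFR encodes the leukemia inhibitory factor receptor, GSN the actin-severing protein gelsolin and FHL1 a LIM-domain protein. GSN went from 2466 ± 62.4 to 14359 ± 57.9 counts and FHL1 from 161 ± 4.11 to 934 ± 36.6 (SD, n = 3). For ITGB2, the tested member with the smallest difference, they were ALB (0.158), SERPING1 (0.185) and APC (0.199). With 2 groups of 3 samples this distance mainly reads the difference between lines.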

How the data were processed

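Total RNA of 3 samples of each line was grouped by sample title. The deposited values are a normalized signal, 1 per gene and sample, and per the labels they come from the nCounter PanCancer Progression panel. The software behind the deposited table is not given in the sources used here. In the deposited values each gene equals a whole count minus a background, times 1 factor per sample, with a minimum of 1: whole numbers came out, within 0.03, for 100% of values from 1.5 to 400. The factors bring the geometric mean of 30 housekeeping genes to 728 to 733, against 808 to 814 (wild type) and 627 to 661 (Q61K) before scaling, and a true difference in those genes would move all others. The background's whole part is unknown, so no count test was run.

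Endogenous genes with a mean above the floor entered a limma fit (version 3.58.1, R 4.3.3, eBayes without trend) on log2(value + 1), 2-sided, with Benjamini-Hochberg adjustment over all of them. This scale understates changes of low genes. Ratios subtract ITGB1's log2 value. On simulated data for 454 genes the fit called 54.0% of genes changed 1.1-fold, 100% of those changed 1.25-fold and 3 of 254 unchanged. Every simulated gene had the same noise, close to the median variation of the panel. ITGB2 varied more, by 12.7% in wild-type and 8.63% in Q61K samples, so these shares do not apply to ITGB2 or other low genes. Alternatives covered scaling, pseudocount, floor, trend, replicate block and each sample left out. The members, lists and tests were chosen with earlier results of these data known. Named were all members, the 4 alpha subunits and the 3 genes of each other list with the largest absolute log2 difference among tested genes, and the 3 genes nearest the highest and lowest member. ITGA2, ITGA8, ITGA9, ITGA11, ITGAM, LAMA1, PTK2B and VCAM1 were named after their values were seen. All 9 member symbols matched RefSeq names. NRAS and BRAF transcripts were not analysed here.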

Additional observations from a re-analysis of the deposited data

How the results depend on the processing

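Over 17 alternatives ITGB3, ITGB4 and PTK2 kept their direction and call, with log2 differences of 2.01 to 2.48, 0.83 to 1.31 and 0.34 to 0.82. ILK and ITGB1 did not pass after equal medians (0.03 and -0.022), quantile normalization (0.07 and 0.03) or positive control scaling (0.17 and 0.11). ITGB8 was -0.045 with factors removed, -0.17 after equal medians, -0.10 after quantile normalization and -0.032 after positive control scaling, and ITGB2 was -0.13, -0.25, -0.26 and -0.12. The members called were 6 as deposited and 3 after positive control scaling; 3 were higher after equal medians, quantile normalization and positive control scaling, and 2 and 1 lower under the first 2 of these. ITGB7 was the 1 member called lower with no floor and with a floor of 20.0 from the 6 dimmer negative probes, chosen after seeing the data, which it passed only through the wild-type line. With no floor ITGB6, at the minimum throughout, was also called, as higher (adjusted p = 0.0104, limma). Of all genes, 175, 149, 156 and 158 were called higher with factors removed, after equal medians, quantile normalization and positive control scaling, against 282 as deposited, and 160, 206, 199 and 139 lower, against 95. With the sum of ITGB1, ITGB3, ITGB6 and ITGB8 as denominator, which holds the risen ITGB3, ILK was called lower (-0.33, adjusted p = 0.000236) and PTK2 lost its call (-0.015, adjusted p = 0.671). Share differences moved when subunits below the floor were left out, to -14.4 points for ITGB1 and -7.43 for ITGB8, and quantile normalization gave -0.00189 for ITGB6. With the replicate block ITGB2 passed (0.20, adjusted p = 0.0263, range over alternatives 0.0263 to 0.372), as did its ratio to ITGB1 (-0.23, adjusted p = 0.0169), and 299 genes were higher and 93 lower. Same-numbered samples deviated together with correlations of 0.216, 0.0528 and 0.0663. Wild-type replicates 1 and 2 correlated best with the Q61K sample of the same number, and wild-type replicate 3 with Q61K replicate 2 (0.0914). These correlations are weak and cannot decide whether same-numbered samples were handled together. The cause of these changes was not tested. Counts near the floor limit the precision of ITGB2 and ITGB7.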

Other observations

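ITGB1 and ITGA1 encode the chains of the collagen receptor alpha1beta1, and ITGA1 pairs with no other beta chain. The ITGB1 to ITGA1 ratio of counts was 6.84, 7.21 and 7.15 in the wild-type line and 0.287, 0.283 and 0.287 in the Q61K line, a 24.7-fold fall with no overlap (exact permutation p = 0.1, 2-sided, the smallest 3 against 3 samples allow). Its level depends on 2 probes, but its change between lines does not depend on the scaling between samples. The pair was chosen after its values were seen.

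NEG_G and NEG_H, 2 of the 8 negative control probes, read 75.5 to 131 and 112 to 144 counts, whereas no other negative probe exceeded 24.8. The floor of 129.7 rests largely on them, and a floor from the other 6 probes, chosen after seeing the data, would be 20.0 counts. The wild-type ITGB7 mean was 12.7 times that value. Since 2 probes without a target read up to 131 and 144 counts, this is not a lower bound on the fold.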
